A study of Homo sapiens with 12 samples.

Results

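Transcript levels of 9 genes of the p53 pathway were examined in human motor neuron cultures treated with the organochlorine pesticide cis-chlordane. The genes were taken by name from the deposited count table as CDKN1A, MDM2, BTG2, GADD45A, GADD45B, GADD45G, TP53INP1, RRM2B and ZMAT3, and are 9 of the 28278 gene symbols listed there. All 9 passed the filter on low counts in every comparison. The cells were the WA09-Islet1-GFP line, a human embryonic stem cell line of wild-type genotype that expresses green fluorescent protein (GFP) from the Islet1 reporter as motor neurons mature. Cultures were differentiated to motor neurons, replated, exposed for 16 hours to cis-chlordane, at 10 µM per the labels, or to an equal volume of the solvent DMSO, and sorted by GFP signal. The 4 groups were control GFP-negative, control GFP-positive, treated GFP-negative and treated GFP-positive cells, with 3 libraries in each. A single cell line was used in every group, and the GFP-negative fraction is what the sort left, not a purified cell type.

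p53 is a transcription factor that DNA damage and other stresses stabilise, and MDM2, a ubiquitin ligase that is itself a p53 target, holds it at low levels. Its targets include CDKN1A (p21), which inhibits cyclin-dependent kinases and through the DREAM repressor complex lowers cell cycle genes, as well as genes of DNA repair and cell death. The 3 GADD45 genes encode small acidic stress proteins that bind PCNA and p21 and activate the kinase MAP3K4 upstream of p38 and JNK. They also answer to p53-independent inputs, GADD45A to ATF4 and GADD45B to NF-kB and TGF-beta signalling. In neurons, several of these genes are known to respond to axon injury.

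RefSeq promoter windows (GRCh38.p14) were found for 6 of the 9 genes, and GADD45A, TP53INP1 and RRM2B had no entry. The 250 bases before each start site were searched on both strands for the p53 response element (20 bases, up to 3 mismatches allowed), CCAAT, TGATGNAA (a composite CEBP and ATF site), TGACG (the core of a CRE), TATAAA and GGGCGG (an Sp1 box). The 4 windows below are shown because they belong to the p53 feedback gene, the kinase inhibitor and the pair of GADD45 genes compared most closely further on. All lie on the plus strand and are written 5′ to 3′, and capitals mark each match to any of the motifs, on either strand.
MDM2, inner start site, chr12:68808767-68809016: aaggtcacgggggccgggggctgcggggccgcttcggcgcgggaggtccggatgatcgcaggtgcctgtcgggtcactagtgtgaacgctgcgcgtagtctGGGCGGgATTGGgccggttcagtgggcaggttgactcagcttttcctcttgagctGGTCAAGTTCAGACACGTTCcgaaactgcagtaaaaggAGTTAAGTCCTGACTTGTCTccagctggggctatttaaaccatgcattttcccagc
CDKN1A, chr6:36678464-36678713: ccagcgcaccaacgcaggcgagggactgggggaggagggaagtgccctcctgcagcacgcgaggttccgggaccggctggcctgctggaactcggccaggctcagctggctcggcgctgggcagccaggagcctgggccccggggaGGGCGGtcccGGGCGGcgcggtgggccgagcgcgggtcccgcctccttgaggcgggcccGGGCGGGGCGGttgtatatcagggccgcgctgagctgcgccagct
GADD45B, chr19:2475877-2476126: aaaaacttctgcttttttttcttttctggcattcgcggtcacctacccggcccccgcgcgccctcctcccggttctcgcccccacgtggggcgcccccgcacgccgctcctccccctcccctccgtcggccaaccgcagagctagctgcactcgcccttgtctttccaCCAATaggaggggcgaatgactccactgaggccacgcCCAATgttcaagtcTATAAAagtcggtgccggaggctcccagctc
GADD45G, chr9:89604762-89605011: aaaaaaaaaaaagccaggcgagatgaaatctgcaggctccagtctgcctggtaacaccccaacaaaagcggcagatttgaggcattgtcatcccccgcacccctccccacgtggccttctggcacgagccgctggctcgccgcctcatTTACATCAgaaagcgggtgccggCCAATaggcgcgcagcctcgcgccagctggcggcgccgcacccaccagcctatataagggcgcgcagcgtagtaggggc

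The inner MDM2 window held both matches to the p53 element, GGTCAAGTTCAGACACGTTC with 2 mismatches at 94 bases before the start site and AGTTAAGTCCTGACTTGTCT with 3 mismatches at 56 bases before it. No window of the other 5 genes held a match, against 4.36% of all 35116 RefSeq promoter windows. Elements farther from the start site, or with a gap inside the 20 bases, were not searched for. The lack of a match thus does not show that these genes lack a p53 element. The GADD45G window held TTACATCA, the reverse strand of TGATGNAA, a motif in 3.14% of all windows, and CCAAT, which 32.0% of windows hold. GADD45B carried CCAAT at 2 positions and TATAAA, found in 10.7% of windows, whereas CDKN1A held only GGGCGG, of which the last 2 copies overlap. GGGCGG occurred in 42.6% of all windows and TGACG in 21.2%. These are matches of letters in short windows, and no binding was measured.

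The libraries held between 23414935 and 38347050 counts. The 8 motor neuron markers summed to between 1725 and 2326 CPM (counts scaled to a common library size, with TMM factors over the 12 libraries) in control GFP-positive cells and to between 271 and 301 CPM in control GFP-negative cells, and to 540 to 867 CPM and 105 to 125 CPM in the treated fractions, with none of the 8 at 0. ISL1, the gene of the reporter, averaged 65.9 CPM in control GFP-positive and 2.56 CPM in control GFP-negative cells, and 12.0 CPM and 0.549 CPM after treatment. Motor neuron marker levels thus moved with treatment, and proliferation markers moved with both sort and treatment, summing to 828 to 941 CPM in control GFP-negative, 127 to 171 CPM in control GFP-positive, 269 to 336 CPM in treated GFP-negative and 74.4 to 100.4 CPM in treated GFP-positive cells. The progenitor, mesenchymal, pluripotency, glial and interneuron lists had summed levels of 2501 to 8300, 50.8 to 893, 48.9 to 258, 3.63 to 79.5 and 2.01 to 38.7 CPM across the libraries, each lowest in treated GFP-positive cells. POU5F1 was at 0 in all 4 groups, NANOG in all but treated GFP-positive cells, SOX10 in control GFP-negative cells, AQP4 in control GFP-positive and treated GFP-negative cells, and HES5 and LUM in treated GFP-positive cells. Each sum follows its most abundant genes, and single members went other ways (calls are defined below). Of the 8 motor neuron markers, 6 were called lower with treatment in GFP-positive and 4 in GFP-negative cells, and 0 higher. In each sort comparison, 1 of the 8 was lower in GFP-positive cells. Of 7 progenitor markers tested, PAX6 rose in GFP-positive cells (log2 2.01), and 3 fell in GFP-negative cells. GFAP rose (2.48) and 2 of 5 glial markers fell in GFP-negative cells. In bulk libraries, fewer cells of a type and less RNA per cell cannot be told apart, and the part that these marker shifts have in the results below was not tested.

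With cis-chlordane, 5 of the 9 genes rose in GFP-positive cells, CDKN1A, GADD45A, GADD45B, GADD45G and RRM2B, and 0 were called lower. Of all 15333 genes tested there, 12.8% were called higher and 11.2% lower. Calls required an at least 2-fold difference and an adjusted p (edgeR quasi-likelihood test, Benjamini-Hochberg) below 0.05. The median log2 fold change of the 9 genes was 1.55, against 0.03 over all genes tested. In GFP-negative cells, 3 genes were called higher, CDKN1A, GADD45A and RRM2B, and 0 lower, where 8.59% and 9.75% of all 15513 genes were called in these directions. The median of the 9 genes was 0.70 there, against -0.01 over all genes. The 9 genes were picked with results of these data in view, so the counts describe them and do not test them as a group.

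**Figure D1:**
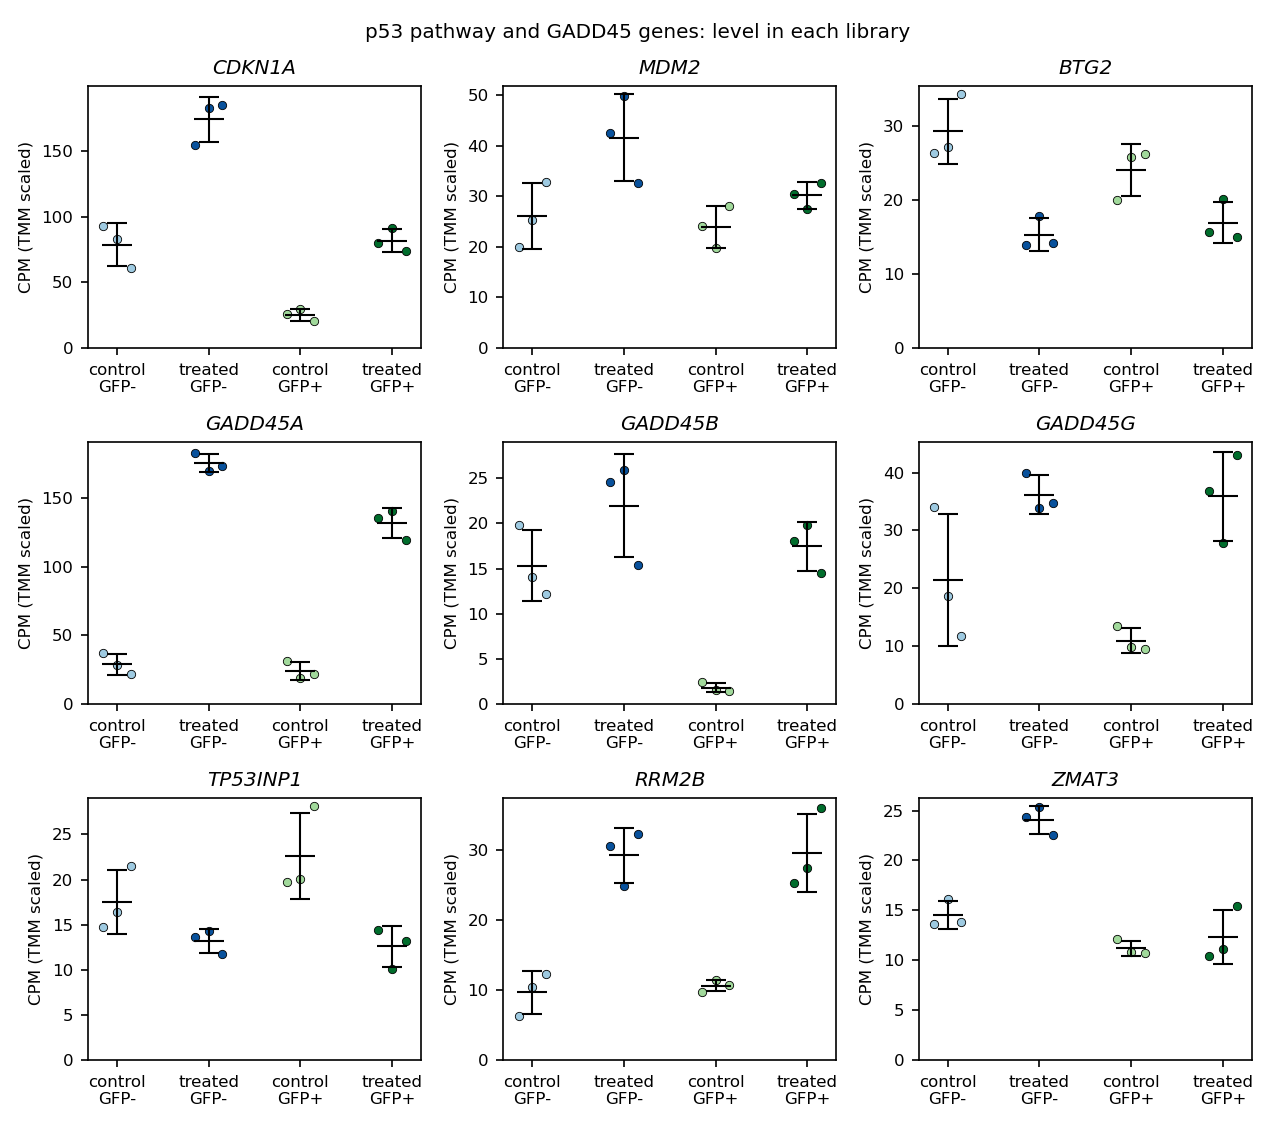
CPM (TMM scaled) of the 9 genes in each of the 12 libraries, by group, with points for libraries, a horizontal mark for the group mean and bars for the SD (n = 3). GADD45A lay between 119.5 and 182 CPM in the 6 treated libraries and at or below 37.0 CPM in the 6 control libraries, and GADD45B lay at or below 2.42 CPM in control GFP-positive cells only.

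CDKN1A, the inhibitor of cyclin-dependent kinases, had levels of 26.2, 29.5 and 20.4 CPM in control GFP-positive and 79.7, 91.4 and 74.0 CPM in treated GFP-positive cells. In GFP-negative cells it stood at 92.8, 82.8 and 60.8 CPM in control and 154.6, 183 and 185 CPM in treated cultures. Treated libraries lay above control libraries in both fractions, and the control GFP-negative and treated GFP-positive groups overlapped. The log2 fold change was 1.76 (SE 0.18, adjusted p = 4.96e-10) in GFP-positive and 1.12 (SE 0.18, adjusted p = 0.00172) in GFP-negative cells. Without control GFP-negative replicate 3 the second value was 0.97, under the fold threshold, at an adjusted p of 0.00172. The difference between the responses was 0.55 (SE 0.25, adjusted p = 0.283), so no difference between the fractions was called.
CDKN1A was also lower in GFP-positive than GFP-negative cells. The log2 difference was -1.74 (SE 0.20, adjusted p = 8.7e-05) in control and -1.07 (SE 0.15, adjusted p = 8.1e-05) in treated cultures. The treated value was -0.90 under library size alone and -0.75 with the GC trend removed, both under the fold threshold. The group order from the highest was treated GFP-negative at 174 ± 16.9 CPM (SD, n = 3), treated GFP-positive at 81.7 ± 8.86, control GFP-negative at 78.8 ± 16.4 and control GFP-positive at 25.4 ± 4.60, and the middle groups did not differ beyond their spread. The exons of CDKN1A (chr6:36676460-36687337, hg38) share 146 bases with DINOL on the opposite strand, and the strand setting of the counting was not given in the sources used here, so its reads may not all be from CDKN1A.

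MDM2, the ubiquitin ligase of p53, whose inner promoter window holds the p53 elements printed above, had no called change. In control GFP-positive cells it had 24.1, 19.8 and 28.1 CPM, and in treated GFP-positive cells 30.5, 27.5 and 32.7 CPM. In GFP-negative cells the control values were 19.9, 25.4 and 32.9 CPM and the treated values 42.6, 49.8 and 32.6 CPM. Treated and control libraries overlapped in both fractions. The log2 fold change was 0.41 (SE 0.19, adjusted p = 0.0659) in GFP-positive and 0.65 (SE 0.24, adjusted p = 0.0602) in GFP-negative cells. When the trend of counts with the GC content of transcripts was removed, the first value was -0.04. The MDM2 exons (chr12:68808177-68845544) share 133 bases with the carboxypeptidase M gene and 785 bases with an unnamed transcript on the opposite strand, and 439 bases with another on the same strand.

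GADD45A, which is induced by DNA damage and by ATF4, had the largest log2 fold change of the 9 genes in GFP-negative cells and the second largest in GFP-positive cells. Its levels were 31.4, 19.1 and 21.9 CPM in control GFP-positive and 135, 141 and 119.5 CPM in treated GFP-positive cells, and 37.0, 28.3 and 21.5 against 182, 169.8 and 173 CPM in GFP-negative cells. The 6 treated libraries were all above the 6 controls. The log2 fold changes were 2.52 (SE 0.19, adjusted p = 2.11e-13) in GFP-positive and 2.57 (SE 0.21, adjusted p = 4.59e-05) in GFP-negative cells, and their difference of -0.14 (SE 0.28, adjusted p = 0.848) was not called. Per kilobase of transcript GADD45A was the highest of the 9 genes in treated cells, at 97.5 CPM per kb in GFP-positive and 129.6 CPM per kb in GFP-negative cells.

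GADD45B, a NF-kB-inducible member of the family, was near the bottom of the measured range in control GFP-positive cells, at 2.42, 1.598 and 1.45 CPM, and rose to 18.0, 19.8 and 14.5 CPM in treated GFP-positive cells. In GFP-negative cells the control values were 19.8, 14.1 and 12.2 CPM and the treated values 24.6, 25.9 and 15.4 CPM. Treated GFP-positive cells and both GFP-negative groups overlapped, while control GFP-positive cells stood apart. The log2 fold change was 3.34 (SE 0.25, adjusted p = 1.7e-13) in GFP-positive and 0.49 (SE 0.26, adjusted p = 0.179) in GFP-negative cells. The interaction of treatment and sort fraction was called for GADD45B alone among the 9 genes, at a log2 value of 2.76 (SE 0.37, adjusted p = 0.00108), where 0.968% of all 16226 genes tested were called in that direction and 1.22% in the other. Control GFP-positive cells had 8.41-fold less GADD45B than control GFP-negative cells by group means, with a log2 difference of -3.18 (SE 0.29, adjusted p = 2.05e-05), whereas the fractions were not called apart after treatment.

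GADD45G, a family member known from neural differentiation, had 13.5, 9.91 and 9.45 CPM in control and 36.8, 27.8 and 43.0 CPM in treated GFP-positive cells. Its control GFP-negative libraries were spread, with 34.1, 18.6 and 11.8 CPM, against 40.0, 33.9 and 34.7 CPM in treated GFP-negative cells. The treated libraries lay above control libraries in GFP-positive cells and overlapped in GFP-negative cells. The log2 fold change was 1.79 (SE 0.21, adjusted p = 6.21e-09) and 0.73 (SE 0.33, adjusted p = 0.121). With the GC trend removed, the second value was 1.04 (adjusted p = 0.0228) and called higher. Without control GFP-negative replicate 1, the second value was 1.22 at an adjusted p of 0.0034. Under that omission the control difference between fractions of -1.08 (SE 0.34, adjusted p = 0.0273) was -0.59 and no longer called. That difference also missed the thresholds without control GFP-positive replicate 2 (-0.979) or 3 (-0.975), and was lost in 7 of 15 alternatives. The interaction value was 0.97 (adjusted p = 0.249).

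**Figure D2:**
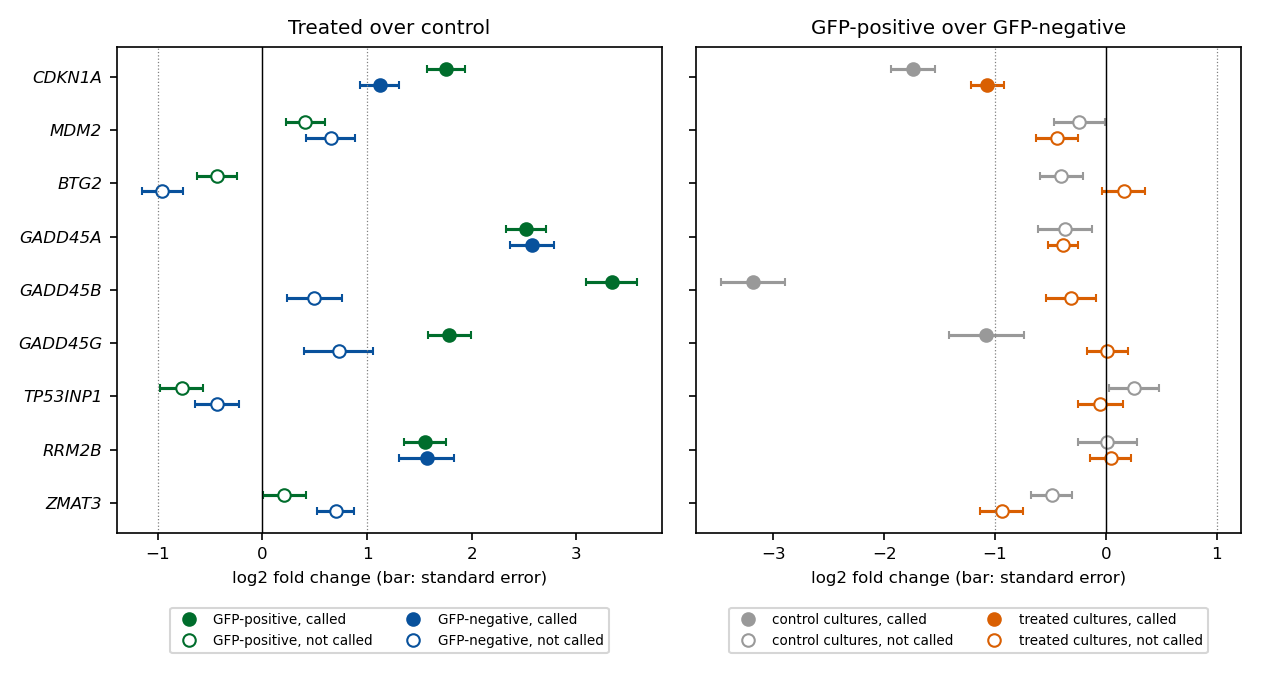
Log2 fold changes of the 9 genes with their standard errors, treated over control in each sort fraction (left) and GFP-positive over GFP-negative cells in each culture type (right), filled where called. GADD45B had 3.34 in GFP-positive and 0.49 in GFP-negative cells, while GADD45A and RRM2B had nearly the same value in both, 2.52 and 2.57 and then 1.55 and 1.57.

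RRM2B, the p53-inducible small subunit of ribonucleotide reductase that supplies deoxynucleotides outside S phase, rose in both fractions. Its levels were 9.77, 11.4 and 10.7 CPM in control and 25.3, 27.5 and 36.0 CPM in treated GFP-positive cells. In GFP-negative cells they were 6.28, 10.5 and 12.3 CPM in control and 30.6, 24.8 and 32.3 CPM in treated cultures. All treated libraries lay above all control libraries. The log2 fold change was 1.55 (SE 0.20, adjusted p = 4.84e-08) and 1.57 (SE 0.26, adjusted p = 0.00177). RRM2B has a transcript of 35.1% GC, the lowest of the 9, and with the GC trend removed the GFP-positive value was 0.90 (adjusted p = 0.000183), under the fold threshold.

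TP53INP1, a p53 cofactor linked to autophagy, and BTG2, an adaptor of the CCR4-NOT deadenylase, had negative log2 values in both fractions, none called. TP53INP1 had 19.8, 20.02 and 28.1 CPM in control and 14.4, 10.1 and 13.2 CPM in treated GFP-positive cells, and 14.7, 16.4 and 21.5 against 13.7, 14.2 and 11.7 CPM in GFP-negative cells. Its treated libraries all lay below the control libraries in both fractions. The log2 values were -0.77 (SE 0.20, adjusted p = 0.0018) and -0.43 (SE 0.21, adjusted p = 0.148), and with the GC trend removed the GFP-positive value was -1.23 and called lower. TP53INP1 exons share 225 bases with NDUFAF6 on the opposite strand.
BTG2 had 19.99, 25.8 and 26.2 CPM in control and 15.7, 20.1 and 14.95 CPM in treated GFP-positive cells, which overlapped, with a log2 value of -0.43 (SE 0.19, adjusted p = 0.0591). In GFP-negative cells it had 26.4, 27.1 and 34.3 CPM in control and 13.9, 17.9 and 14.1 CPM in treated cultures, which did not overlap. The log2 value of -0.96 (SE 0.20, adjusted p = 0.0053) missed the fold threshold, and was -1.01 to -1.08 and called without control GFP-negative replicate 1 or 2 or treated GFP-negative replicate 2.

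ZMAT3, an RNA-binding splicing regulator, had 12.1, 10.9 and 10.7 CPM in control and 10.4, 11.1 and 15.4 CPM in treated GFP-positive cells, which overlapped. In GFP-negative cells it had 13.7, 16.2 and 13.9 CPM in control and 24.3, 25.3 and 22.5 CPM in treated cultures, and the treated libraries all lay above the control libraries. The log2 values were 0.21 (SE 0.21, adjusted p = 0.415) and 0.70 (SE 0.18, adjusted p = 0.014), the second under the fold threshold, and the first was -0.32 with the GC trend removed. Treated GFP-positive cells had less ZMAT3 than treated GFP-negative cells, with a log2 difference of -0.94 (SE 0.20, adjusted p = 0.00179) that missed the fold threshold and was called without treated GFP-positive replicate 3 (-1.16) or treated GFP-negative replicate 3 (-1.001), and with the GC trend removed (-1.20). The interaction value of -0.58 was not called (adjusted p = 0.267).

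Libraries of treated and control cells did not overlap for 6 genes in GFP-positive cells, 5 above and 1 below, and for 6 in GFP-negative cells, 4 above and 2 below. Over all genes tested, the libraries lay apart with treated above for 26.7% and treated below for 30.8% in GFP-positive cells, and for 24.2% and 22.4% in GFP-negative cells. In the sort comparisons, 3 genes were lower and 0 higher in control GFP-positive cells, CDKN1A, GADD45B and, less stably, GADD45G, where 15.3% of all genes were called lower and 7.47% higher. In treated cultures 1 gene was called lower, CDKN1A, where 13.7% of all genes were called lower and 10.0% higher. The GFP-positive libraries lay wholly below the GFP-negative ones for 4 of the 9 genes in control and 3 in treated cultures, and above for 0 in each, while over all genes tested 23.8% and 29.6% lay below and 29.5% and 28.1% above. The sort comparisons use the same libraries as the treatment comparisons and are no separate evidence.

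Per kilobase, the 9 genes held the same top 3 in treated and control GFP-positive cells, GADD45A, CDKN1A and GADD45G, at 17.9, 12.0 and 10.3 CPM per kb in control and 97.5, 38.6 and 33.7 CPM per kb in treated cells. GADD45B moved from 1.33 to 12.7 CPM per kb. ZMAT3 was lowest in control GFP-positive cells, at 1.26 CPM per kb.

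Of the upstream regulators of p53, 2 of 20 tested genes rose and 1 fell in GFP-positive cells, with a median log2 fold change of 0.23, against the 12.8% higher and 11.2% lower of all genes. The damage kinases ATR and ATM rose by 1.61 and 1.03, the latter just over the fold threshold, and PPP1R13B, the ASPP1 cofactor, fell by 1.18. The ATR and ATM values in GFP-negative cells, 0.54 and 0.39, were not called. In GFP-negative cells 0 of 21 rose and 2 fell, CDKN2A by 1.59 and PPP1R13B by 1.10, with a median of -0.04. MDM4, the MDM2 paralog, had 0.70 and 0.32, and the p53 phosphatase PPM1D had -0.22 and -0.49, none called.

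Other p53 targets were listed by role. Of 18 targets of cell death, 15 were tested in GFP-positive cells, where 8 rose and 0 fell (median 1.16). In GFP-negative cells 6 of 18 rose and 0 fell (median 0.66). The shares higher were 53.3% and 33.3%, beside 12.8% and 8.59% of all genes. PMAIP1 (NOXA, a BH3-only protein) had log2 fold changes of 4.24 and 2.14, EDA2R and TNFRSF10B (death receptors) 3.95 and 2.24 and 3.15 and 2.36, and DRAM1, a lysosomal autophagy gene, 3.37 and 1.84. Of the 25 targets of arrest and repair, 4 rose and 3 fell in GFP-positive cells (median 0.01) and 4 rose and 2 fell in GFP-negative cells (median 0.12), shares of 16% and 12% and then 16% and 8% beside 12.8% and 11.2% and then 8.59% and 9.75% of all genes. GDF15, a secreted stress cytokine, had 7.61 and 5.05 and SESN2, an mTORC1 inhibitor, 2.81 and 3.15, while CSF1, TP53I3 and PHLDA3 fell by 1.57, 1.36 and 1.11 in GFP-positive cells. GDF15, SESN2, TNFRSF10B and PMAIP1 are also known targets of ATF4 or CHOP. In the list of such targets, 14 of 14 tested genes rose in each fraction, with medians of 2.75 and 2.91. That list includes DDIT3, the gene of CHOP itself, and was chosen with earlier results of these data known. Its count therefore describes the listed genes, and a role of ATF4 or CHOP was not tested.

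Cell cycle genes repressed through the DREAM complex were mostly lower or not called. In GFP-positive cells 9 of 30 were lower and 1 higher (median -0.67), and in GFP-negative cells 25 of 30 lower and 0 higher (median -1.43). The shares lower were 30% and 83.3%, beside 11.2% and 9.75% of all genes. AURKB and CDC20 had -2.47 and -1.63 in GFP-positive cells, and MKI67, AURKB and RRM2 fell by 2.42, 2.32 and 1.95 in GFP-negative cells. CCNE2 was called higher in GFP-positive cells at 1.32, although its libraries overlapped. Proliferation markers moved with this list, 5 of their 6 genes being in it. RRM2, the S phase small subunit of ribonucleotide reductase, fell by 1.19 in GFP-positive cells, RRM1, their shared large subunit, had 0.09 and -0.73 in the 2 fractions, and the thymidine kinase TK1 fell by 2.24 and 2.11. RRM2 and TK1 were the 2 genes called lower among 7 of nucleotide supply in each fraction (28.6%, beside the same shares of all genes), and 0 were called higher.

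Beside the counts below, 12.8% of all genes were called higher and 11.2% lower in GFP-positive cells, and 8.59% and 9.75% in GFP-negative cells. A further list held CDK inhibitors other than CDKN1A, G1 cyclins and the kinases CDK2, CDK4 and CDK6. In GFP-positive cells 2 of its 12 tested genes rose and 1 fell, shares of 16.7% and 8.33% near those of all genes. CCND2 rose by 2.08 and CDKN2B by 1.34, and CDKN1C had -1.09. In GFP-negative cells 0 of 13 rose and 4 fell, the inhibitors CDKN2A and CDKN2C, the cyclin CCNE1 and the kinase CDK2. CDKN1B (p27) had 0.70 and 0.55. Of 13 partners of the GADD45 proteins, 0 rose in either fraction, and 1 fell in GFP-positive and 2 in GFP-negative cells. The p38 kinase kinase MAP2K3 fell by 1.72 and 1.64. PCNA had a log2 value of -1.18 in GFP-negative cells, called lower, and -0.12 in GFP-positive cells, not called. NF-kB targets and immediate early genes, listed jointly because GADD45B is known to follow such inputs, had 5 of 13 higher in GFP-positive cells and 3 of 13 in GFP-negative cells, with 0 lower and medians of 0.60 and 0.61. FOSB had 3.27 and 1.76, NR4A1 1.47 and 1.64, and JUNB 1.42 and 1.17. Of 5 genes outside the family that share the GADD or DDIT name or are their relatives, 4 rose in each fraction, and DDIT3 (CHOP) and PPP1R15A (GADD34) rose by 3.62 and 1.95 in GFP-positive and 3.05 and 2.48 in GFP-negative cells. Of the 4 other BTG and TOB genes tested, 2 rose in GFP-positive cells, BTG3 by 1.59 and BTG1 by 1.32, and 1 in GFP-negative cells, BTG1 by 1.13, with TOB1 at -0.18 and -0.31. Of 7 subunits of the CCR4-NOT deadenylase, 0 were called in either fraction. Of 5 autophagy partners of TP53INP1, MAP1LC3B rose by 2.54 in each fraction.

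**Figure D3:**
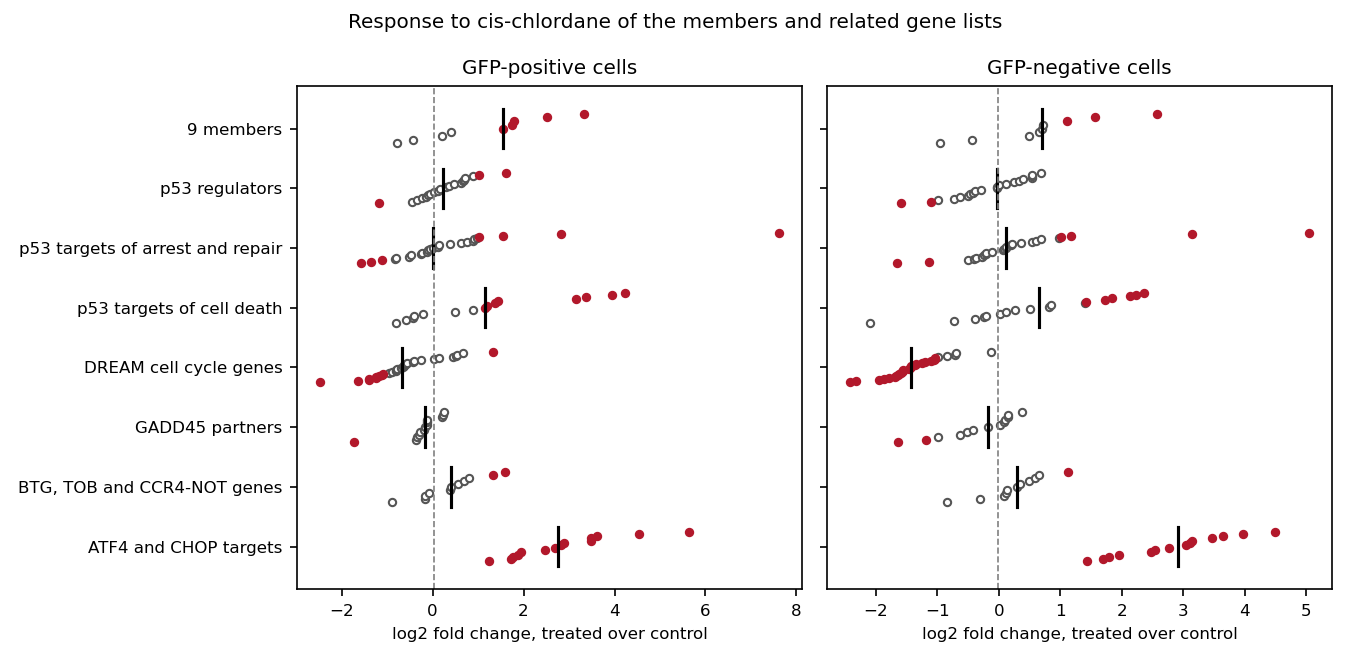
Log2 fold changes, treated over control, of the 9 genes and 7 related lists in each sort fraction, filled where called, with a black bar for each list's median and a dashed line for the median of all genes. The cell death targets had medians of 1.16 and 0.66, the DREAM genes -0.67 and -1.43, and the ATF4 and CHOP targets 2.75 and 2.91.

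The genes most like CDKN1A across the 12 libraries by Pearson correlation of log2 CPM, among 11127 genes with a mean of at least 5 CPM, were PIM1 (r = 0.981), SERPINB6 (0.980) and PLPP2 (0.978). For MDM2 they were ERAP1 (0.915), GNB4 (0.914) and REST (0.890), and for GADD45A they were ADM2 (0.993), ISCU (0.988) and SLC3A2 (0.987). The libraries share groups and depth, so the values describe likeness and no test was made.

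**Figure D4:**
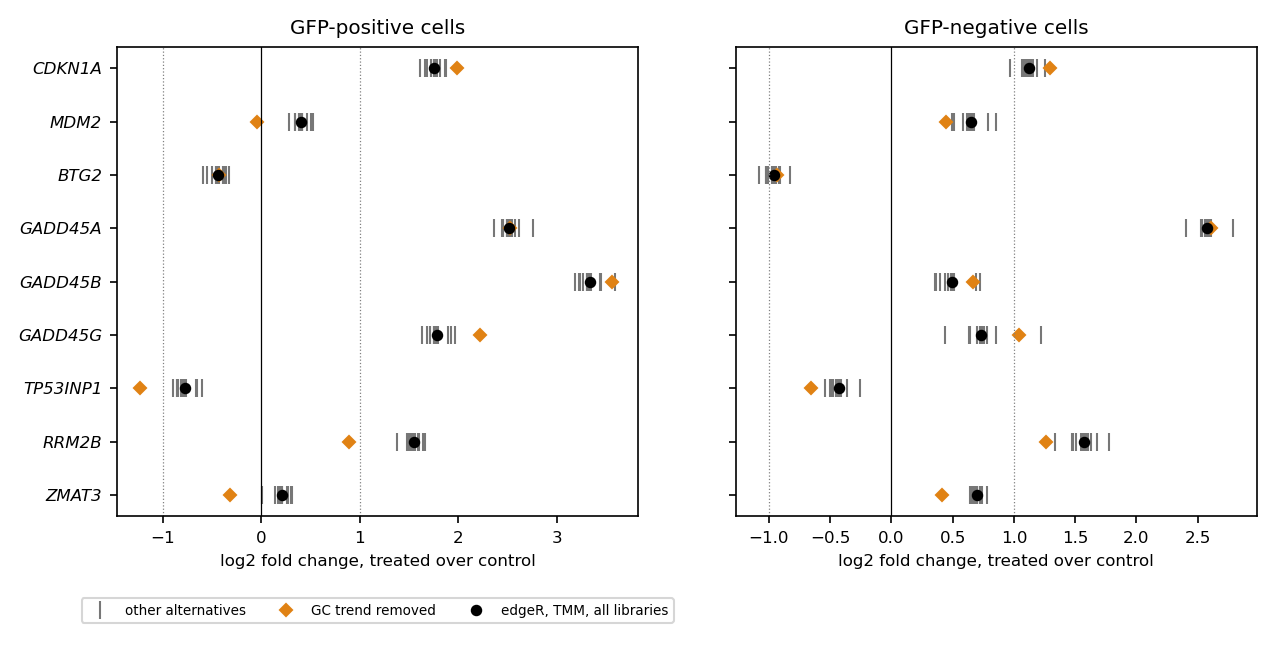
Log2 fold changes, treated over control, of the 9 genes under the reported settings (black points), with the GC trend removed (diamonds) and under the other alternatives (ticks), in each sort fraction. Removal of the GC trend moved RRM2B from 1.55 to 0.90 and MDM2 from 0.41 to -0.04 in GFP-positive cells, and GADD45A and GADD45B stayed above 2 there under every alternative drawn.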

How the data were processed

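RNA was sequenced from 12 libraries in 4 groups of 3, taken from the sample labels. The titles of the treated libraries also open with the word untreated, so groups were read from the rest of the title and the treatment label. The dose is 10 µM per the labels, whereas the study's methods give another value. The authors used HISAT2, the hg38 genome and Ensembl gene models for mapping, and deposited raw counts per gene, with featureCounts named in the submitters' processing notes. Reads were single-end and mapped as reverse-stranded, but tool versions and the strand setting of the counting were not given in the sources used here. Of the per-sample columns, 0 were left unused.

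Counts were tested with edgeR 4.0.16 in R 4.3.3 (TMM, filterByExpr with a minimum count of 10 and total of 15, quasi-likelihood F-test, Benjamini-Hochberg over all genes tested). Each comparison used the 6 libraries of its groups, and the interaction used all 12. Calls required an adjusted p below 0.05 and at least a 2-fold difference, and for the interaction the adjusted p alone. The standard error is the log2 fold change divided by the square root of F. Depth was 23414935 to 38347050 counts and does not alone set the precision. Replicates differed by more than sampling noise (chi-square per gene 23.6 to 116). By the study's methods a biological replicate is a separate thaw of stored cells, and experiments span independent differentiations. The p-values thus measure the spread between thaws, and possibly differentiations, of a single line. On data simulated with independent libraries and the same dispersion for every gene, 200 of 200 genes changed 4-fold were recovered in each comparison. Of the unchanged genes, 0 to 3 were called in the comparisons of groups and 14 in the interaction. The simulation checks the code and does not measure recovery at a 2-fold change or at the spread of these replicates. Alternatives used DESeq2 1.42.0 and GC content from GENCODE 44 transcripts, matched for 25763 of 28278 symbols.

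All 9 members were named in every comparison. Other genes were named when called with the 3 largest absolute log2 fold changes of a list, with 10 regulators and relatives named whatever their values, and 1 more gene is not reported here. Members and lists were chosen with earlier results of these data known.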

Additional observations from a re-analysis of the deposited data

Results flagged for a closer look

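The response of GADD45B to cis-chlordane differed between the sort fractions by 2.76 on the log2 scale (SE 0.37, adjusted p = 0.00108, edgeR interaction term over 12 libraries). In GFP-positive cells 3 of 3 treated libraries lay above the controls, and in GFP-negative cells treated and control libraries overlapped. The same term was not called for the other 8 genes. Control GFP-positive libraries had 1.45 to 2.42 CPM, and the other 9 libraries 12.2 to 25.9 CPM.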

How the results depend on the processing

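The calls were recomputed with DESeq2, RLE scaling, library size alone, no low count filter, at least 10 counts in every library, all 12 libraries, glmTreat against a fold change of 2, the GC trend removed, the replicate block and each library left out. Of the 711 member values, 657 kept direction and side of the thresholds, 10 passed them newly, 14 missed them and 30 changed sign. With the GC trend removed, 1 member was called lower in GFP-positive cells (TP53INP1) in place of 0, and under glmTreat 1 was called higher in GFP-negative cells in place of 3. Library size alone called 1 member lower in GFP-negative cells (BTG2) in place of 0, and without a library this was 0 to 1. In the treated sort, 0 members were called lower under library size alone and glmTreat in place of 1, and 1 to 2 without a library. Where the reason is not given by the setting itself, the cause was not tested.

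With the GC trend removed, the GFP-positive response was -0.042 for MDM2, -0.32 for ZMAT3 and -0.23 for RRM1, and the treated sort difference 0.0050 for GADD45B and -0.29 for RRM2B. Without a library, PCNA in GFP-positive cells ranged from -0.29 to 0.026. The control sort difference of RRM2B was -0.0036 with at least 10 counts and -0.23 to 0.25 without a library. The treated sort difference of GADD45G was -0.011 under DESeq2, -0.011 under RLE scaling, -0.0096 with all 12 libraries and -0.17 to 0.14 without a library, that of TP53INP1 0.12 under library size alone and -0.18 to 0.065 without a library, and those of BTG2 and RRM2B -0.00016 to 0.31 and -0.15 to 0.12. The interaction of GADD45A was 0.091 under library size alone, 0.014 with at least 10 counts and -0.33 to 0.093 without a library, and that of RRM2B 0.18, 0.060 and -0.32 to 0.16.

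The fractions of a treatment with the same number deviated together (r 0.085 to 0.36, best with the own number in 12 of 12 libraries) and those of a fraction across treatments had r of -0.047 to 0.28 (6 of 12), which hints that the fractions of a culture share a number. The labels do not state it and not every pair was over 0.1, so no pairing was assumed. If the fractions do share cultures, the sort and interaction tests as reported treat paired libraries as independent. With the replicate block, GADD45G in the treated sort was -0.0057, the GADD45B interaction 2.78 and also called, and the interaction called 519 higher and 745 lower of all genes, against 157 and 198 as reported. DESeq2 called 411 and 378 there, and library size alone 266 and 84. Library size alone moved the median of all genes by 0.11 in GFP-positive cells, 0.17 in the treated sort and 0.26 in the interaction, and the calls to 2315 higher and 1397 lower (1959 and 1716 as reported) and 2230 and 1770 (1541 and 2117). Under glmTreat 920 and 728 genes were called in GFP-positive and 446 and 366 in GFP-negative cells (1332 and 1512 as reported), 295 and 1408 in the control sort (1151 and 2355) and 390 and 1170 in the treated sort. Of 720 counts over pathway lists, 66 moved by over 1.5 times, 18 of them under glmTreat and the rest under other settings. Under glmTreat, DREAM genes called lower were 2 and 11 and cell death targets called higher 5 in GFP-positive cells.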
